A study of Mus musculus with 6 samples.

Results

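The genes described here are targets of the transcription factor NRF2 and other antioxidant enzymes. The 32 genes were listed by symbol, grouped by what their products do, and chosen with earlier results of these data known. A gene was measured through the array probes whose RefSeq accession belongs to it, and 31 of the 32 had at least 1 probe, 40 probes in all. Gsta1 had no probe matched by accession and is not analysed here. All 31 measured genes were well above background on all 6 arrays and entered the test, among 15309 genes tested.

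The RNA came from the whole kidney of 6 male mice of strain C57BL/6J, 3 labelled as controls and 3 as iNampt-conditional knockouts, each on its own single-colour Agilent array. The enzyme made from Nampt limits the rate at which nicotinamide is recycled into NAD, and NAD is the substrate from which cells make NADP. The series title places the gene's role in the proximal tubule. The promoter that drives the deletion, the age of the animals and any allele carried by the controls are not given in the sources used here. Whole-kidney RNA mixes proximal tubule with every other cell type.

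NRF2, encoded by Nfe2l2, is held at a low level by KEAP1, which marks it for degradation. When oxidants or electrophiles modify KEAP1, NRF2 accumulates, pairs with small MAF proteins and binds antioxidant response elements beside its target genes. The targets make glutathione, attach it to toxic compounds, reduce oxidised thioredoxin and quinones, and supply the NADPH on which these reductions run. The proximal tubule carries much of the kidney's glutathione metabolism and depends on these enzymes under oxidative stress.

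The response element is commonly searched for by its core letters, here TGACNNNGC on either strand, which read GCNNNGTCA on the other. RefSeq promoters of build GRCm38.p6, from 250 bases before to 50 bases after a gene's start, were searched for it. Of the 32 genes, 28 matched a promoter in that table, all but Gclc, Gsr, Gsta4 and Hmox1. These 28 genes have 35 promoters, of which 10, each of a different gene, hold the letters (28.6%), against 12.4% of all 32851 promoters. A match is a description of the letters and not evidence of binding. The windows below lie before the start and are shown because each comes from a different branch of the pathway, namely NADPH supply, glutathione synthesis, peroxide removal, thioredoxin reduction and glucuronate supply, with the matched letters in capitals.
G6pdx (chrX:74428904-74428962, minus strand): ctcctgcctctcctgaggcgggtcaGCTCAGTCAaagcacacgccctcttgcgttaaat
Gclm (chr3:122245398-122245456, plus strand): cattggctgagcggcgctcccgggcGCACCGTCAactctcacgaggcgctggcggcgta
Prdx1 (chr4:116685441-116685499, plus strand): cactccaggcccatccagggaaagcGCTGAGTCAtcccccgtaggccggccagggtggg
Txnrd1 (chr10:82859089-82859147, plus strand): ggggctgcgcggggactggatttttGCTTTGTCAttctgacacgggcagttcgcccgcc
Ugdh (chr5:65435941-65435999, minus strand): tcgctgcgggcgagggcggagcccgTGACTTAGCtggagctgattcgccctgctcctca
In Prdx1 the matched letters also hold TGANTCA, the core bound by AP-1 factors. The 10 genes with a match differed between knockout and control by -0.10 to 0.12 on the log2 scale, with a median of 0.0026, and the 17 measured genes with a promoter and no match by -0.25 to 0.45, with a median of -0.014. None in either set passed the test described below.

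The share of spots well above background was 57.3% to 63.3% per array, and 0 spots were saturated. All arrays lay on 1 slide. Its first row held every control together with knockout 1, and its second row held the other 2 knockouts, so slide row is partly confounded with group. The second row held no control. With slide row as a block, a difference between the groups therefore comes from knockout 1 against the controls alone. The lowest signal above background was 18.5 to 20.9 units in the first row and 29.6 and 32.2 units in the second. Nampt was at 48.0% of the control level in the knockouts (log2 difference -1.06 ± 0.10 SE, limma adjusted p = 0.0431). It was under 0.05 in 9 of 18 other settings. Once slide row was a block, the difference was -0.87 and no longer passed (adjusted p = 0.0733). None of the 32 genes lies on the chromosome of Nampt, 12. All 13 proximal tubule markers, Lrp2 and Slc34a1 among them, were well above background. The labels number the mice separately, and the number of animals limits the precision.

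The antioxidant programme as a whole stood close to the control level in the knockout kidneys. Values are log2 signals relative to each array's 75th percentile, and differences are knockout minus control. The median difference of the 31 genes was -0.014, beside -0.0077 over all genes tested, with 14 genes above 0 and 17 below (47.1% of all genes were above 0). By limma with Benjamini-Hochberg adjustment, 0 of the 31 had an adjusted p under 0.05, where 0.17% of all genes tested did. At an unadjusted p under 0.05 there were 4 of 31 genes, or 12.9%, beside 12.8% of all genes. They were Gstm1 and Cbr3 on the higher side, where 6.69% of all genes lay, and Gclc and Hmox1 on the lower, where 6.13% lay. The groups did not overlap for 6 of the 31, or 19.4%, beside 19.5% of all genes. Gstm1, Gstp1, Nqo1 and Cbr3 were higher in every knockout (9.04% of all genes were), and Gclc and Hmox1 lower (10.5% of all genes). Each share was near its background. The 95% interval of the difference lay within a 1.5-fold change either way for 27 of the 31 genes, or 87.1%, beside 84.4% of all genes. The 4 genes whose interval reached past 1.5-fold were Gclc, Cbr3, Ephx1 and Osgin1.

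**Figure D1:**
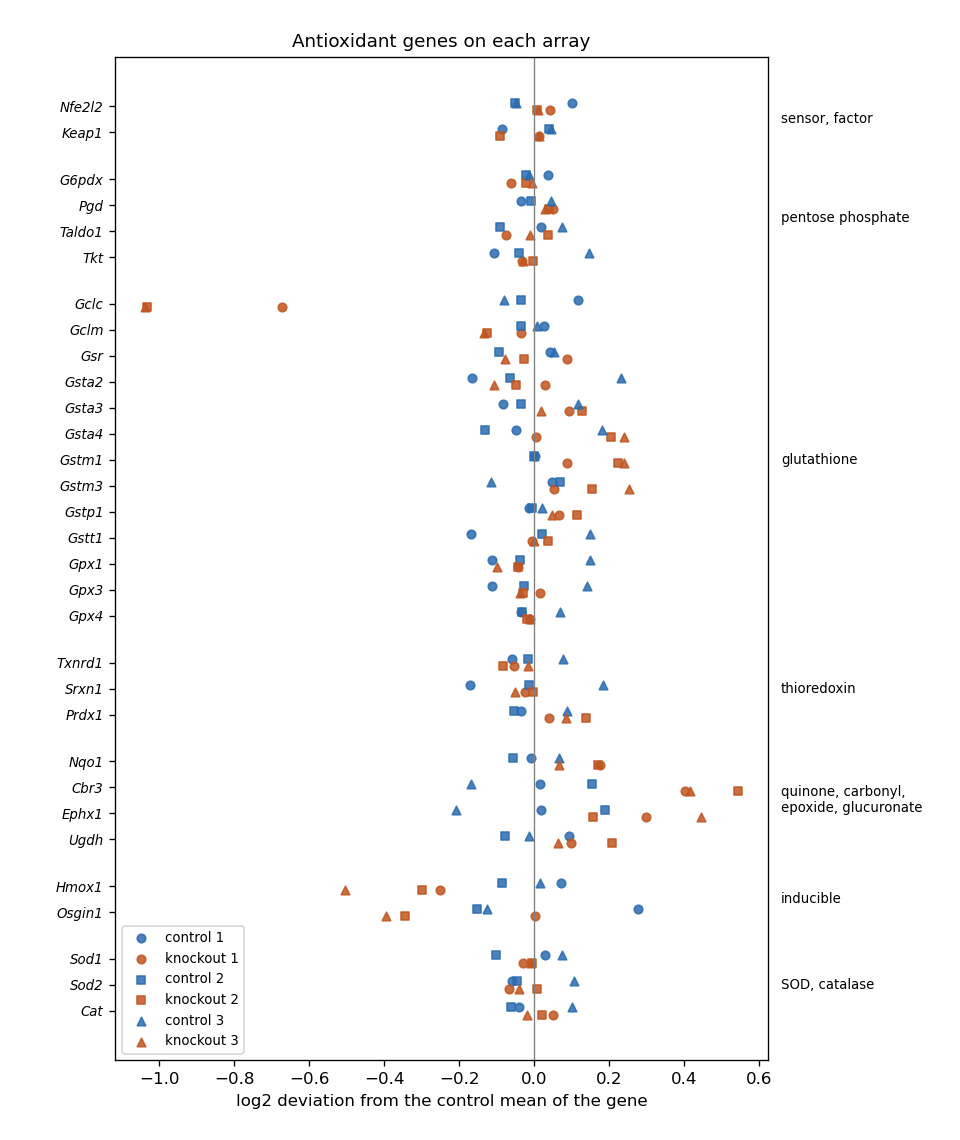
Each point is 1 array's log2 deviation of a gene from its control mean, with controls in blue and knockouts in orange, marker shapes for replicates 1 to 3, and genes grouped by role. Gclc stands apart on the left with all 3 knockouts, Hmox1 and Cbr3 separate by less, and for most other genes the knockout points lie among the control points.

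The transcription factor and its sensor did not differ beyond the spread between animals. Nfe2l2 was at 3.39, 3.23 and 3.24 in the controls and 3.33, 3.29 and 3.30 in the knockouts, a difference of 0.02 ± 0.06 (SE, adjusted p = 0.918). Keap1 was at 2.17, 2.30 and 2.30 in the controls and 2.27, 2.17 and 2.27 in the knockouts (-0.02 ± 0.06, adjusted p = 0.917). The groups overlapped for both genes. Their 95% intervals ran from -0.12 to 0.16 and from -0.17 to 0.13. NRF2 is controlled mainly through protein stability, which arrays do not measure.

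Glutathione synthesis held the largest difference among the 31 genes. Gclc encodes the catalytic subunit of glutamate-cysteine ligase, the rate-limiting enzyme of glutathione synthesis. Its signal was 5.91, 5.76 and 5.71 in controls 1 to 3 and 5.12, 4.76 and 4.76 in knockouts 1 to 3. Every knockout lay below every control, and knockout 1 lay between the controls and the other 2 knockouts. The group means were 5.79 ± 0.10 and 4.88 ± 0.21 (SD, n = 3 each), a difference of -0.92 ± 0.12 (SE, 95% interval -1.20 to -0.63), so that the knockouts averaged 53.0% of the control level. Gclc ranked 49 by p among the 15309 genes and missed the threshold (limma adjusted p = 0.0747). It passed in 3 of 18 other settings, which were leaving out knockout 1 (-1.04, adjusted p = 0.0264), array weights (0.0335) and a trended and robust variance (0.0275). Within the first slide row, which sets knockout 1 against the 3 controls, it was at -0.67. With slide row as a block over all 6 arrays the difference rests on the same comparison and was the same (limma adjusted p = 0.112). In whole kidneys, fewer cells of a type and less RNA per cell cannot be told apart.

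Gclm encodes the modifier subunit of the same ligase, which makes the catalytic subunit more efficient, and is a standard NRF2 target. It was at 2.72, 2.66 and 2.70 in the controls and 2.66, 2.57 and 2.56 in the knockouts. Only knockouts 2 and 3 lay below all controls, and knockout 1 lay at the level of control 2. The difference was -0.10 ± 0.05 (adjusted p = 0.492), with an interval from -0.22 to 0.03. Set against Gclm on the same array, Gclc deviated by 0.09, -0.0014 and -0.09 in the controls and by -0.64, -0.91 and -0.91 in the knockouts. The contrast is a description with no test, since Gclc stands in it as the gene with the largest difference. With slide row as a block Gclm was at -0.03. Gsr, the NADPH-dependent glutathione reductase, was at -0.0058 ± 0.07, with its other probe at -0.03.

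**Figure D2:**
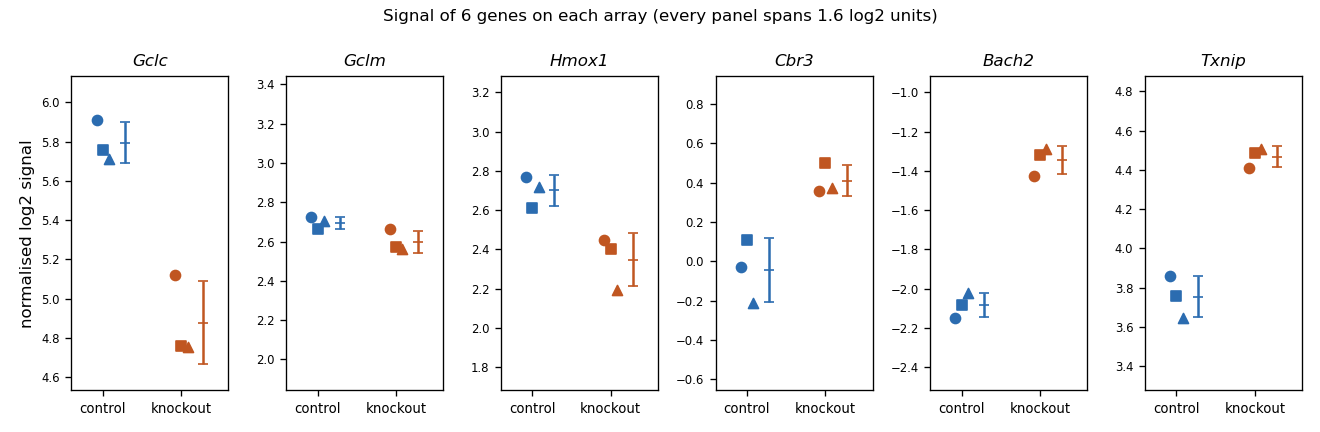
Normalised log2 signal of 6 genes on each array, controls in blue and knockouts in orange, marker shapes for replicates 1 to 3 (circle, square, triangle), with the group mean and SD beside the points; every panel spans the same range of 1.6 log2 units, and heights are not comparable between genes. Gclc lies at 5.71 or above in the controls and at 5.12 or below in the knockouts, Gclm differs by -0.10, and Bach2 and Txnip lie higher in all 3 knockouts.

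Cell type markers were set beside these values. The proximal tubule list had 0 of 13 markers past the test, and its summed level, the sum of linear signals relative to the array's 75th percentile, was 2390 to 2628 in the controls and 2434 to 2455 in the knockouts. In the list of the straight proximal tubule, 1 of 8 passed, Rnf24, which fell (adjusted p = 0.0431, and 0.0733 with slide row as a block), and the sum was 388 to 463 in the controls and 427 to 438 in the knockouts. The tubular injury list had 0 of 9 past the test but 7 of 9 higher at an unadjusted p under 0.05, where 6.69% of all genes were, with a sum of 114 to 140 in the controls and 132 to 140 in the knockouts. Clu, the brightest gene of that list, differed by -0.01 and makes up much of the sum. Its marker Havcr1, which encodes KIM-1, was between -4.27 and -3.77 in the controls and at -1.90, 0.59 and 0.23 in knockouts 1 to 3, so that knockout 1 lay nearest the controls for Havcr1 as for Gclc. Their part in the Gclc difference was not tested. Distal nephron, endothelial and fibroblast lists had 0 of 8, 0 of 8 and 0 of 7 markers past the test. Their summed levels overlapped between groups (425 to 441 against 418 to 455, 52.4 to 56.6 against 52.2 to 55.8, and 36.2 to 58.3 against 48.1 to 60.8). Umod, the brightest distal nephron marker, differed by 0.02 and makes up most of that list's sum, which therefore says little of its other markers.

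Glutathione transferases, which attach glutathione to electrophiles, did not differ beyond the test's threshold. Gstm1 was at 5.93, 5.92 and 5.92 in the controls and 6.01, 6.15 and 6.17 in the knockouts, a difference of 0.18 ± 0.06 (adjusted p = 0.289). All 3 knockouts lay above all 3 controls, and the difference was 0.09 with slide row as a block. Its other probe was at 0.13. Gstp1 also separated, from 4.45 to 4.49 in the controls and from 4.52 to 4.58 in the knockouts (0.08 ± 0.04, adjusted p = 0.544). Its other probe was at 0.16, again with every knockout above every control. Gstm3 was at 0.15 ± 0.08, Gsta4 at 0.15 ± 0.10 and Gsta3 at 0.08 ± 0.07, with overlapping groups. With slide row as a block Gstm3 was at 0.05 and Gsta4 at 0.0057, and Gsta4 ran from 0.08 without control 2 to 0.24 without control 3. Gsta2 was at -0.04 ± 0.11 and Gstt1 at 0.0095 ± 0.09. Gsta1, Gsta2 and the Gstm and Gstp genes belong to families of close paralogs, and the files hold no probe letters from which cross-hybridisation could be judged.

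Glutathione peroxidases, which use glutathione to reduce peroxides, did not differ beyond the spread. Gpx1, the main cytosolic form, was at 8.83, 8.91 and 9.10 in the controls and 8.90, 8.90 and 8.85 in the knockouts (-0.06 ± 0.08). Gpx3, the form that the proximal tubule secretes into plasma, ranged from 8.93 to 9.18 in the controls and was at 9.05 in knockout 1 (-0.02 ± 0.07). Gpx4, which protects membranes from lipid peroxidation, was at -0.01 ± 0.05. For all 3 genes the knockouts lay inside the range of the controls, and control 3 was the highest array. Their intervals together ran from -0.25 to 0.16.

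NADPH supply was set against the glutathione enzymes array by array. G6pdx and Pgd encode the oxidative enzymes of the pentose phosphate pathway, which reduce NADP to NADPH, and Taldo1 and Tkt the enzymes that return its sugars to glycolysis. G6pdx ranged from 2.9995 to 3.06 in the controls and from 2.96 to 3.02 in the knockouts (-0.03 ± 0.05, interval -0.14 to 0.08). Pgd was at 3.49, 3.52 and 3.57 in the controls and 3.58, 3.57 and 3.56 in the knockouts (0.04 ± 0.04, interval -0.07 to 0.15). Taldo1 was at -0.02 ± 0.06 and Tkt at -0.02 ± 0.07. The groups overlapped for all 4 genes, and none had an adjusted p under 0.773.

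The mean deviation of these 4 genes from their control means was -0.022, -0.041 and 0.063 in controls 1 to 3 and -0.030, 0.013 and -0.0049 in the knockouts. For the 13 measured glutathione enzymes it was -0.039, -0.032 and 0.071 in the controls and -0.026, -0.036 and -0.055 in the knockouts. Both classes were highest in control 3, and in both the knockouts lay no farther from 0 than control 3 did. The difference between the classes was 0.017, -0.0091 and -0.0081 in the controls and -0.0044, 0.049 and 0.050 in the knockouts, which averages 0.031 more in the knockouts, against a pooled SD between arrays of 0.024. Knockout 1 lay among the controls. Without Gclc, a choice made after its value was seen, the difference turned to -0.042, with all 3 knockouts (-0.058, -0.034 and -0.032) below all 3 controls. No test is given for these averages, because the genes were chosen with earlier results of these data known. The direction of the class comparison therefore rests on Gclc. The class averages of the knockouts were -0.0073 for pentose phosphate, -0.039 for glutathione and 0.034 for glutathione without Gclc.

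**Figure D3:**
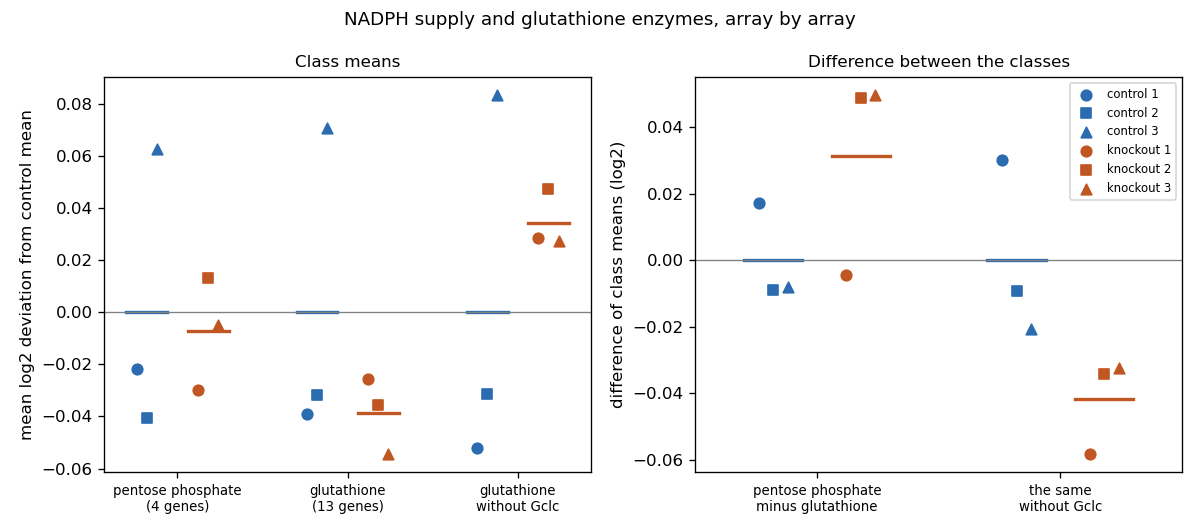
Left, mean log2 deviation from the control mean per array for the 4 pentose phosphate genes, the 13 glutathione genes and the glutathione genes without Gclc; right, the difference between the class means, with and without Gclc. Short lines are group means, blue is control and orange knockout; the difference averages 0.031 in the knockouts with Gclc and -0.042 without it.

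The thioredoxin branch reduces protein disulphides and peroxides with electrons from NADPH. Txnrd1, the cytosolic thioredoxin reductase, was at 4.31, 4.36 and 4.45 in the controls and 4.32, 4.29 and 4.36 in the knockouts (-0.05 ± 0.05, adjusted p = 0.753). Srxn1, sulfiredoxin, which repairs overoxidised peroxiredoxins, was at -0.03 ± 0.09. Prdx1, a cytosolic peroxiredoxin, was at 0.09 ± 0.06, with its other probe at 0.02. None of the 3 separated the groups.

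Enzymes that handle quinones, carbonyls, epoxides and glucuronate lay above the control mean in every case, although none passed the test. Cbr3, a carbonyl reductase, was at -0.03, 0.11 and -0.21 in the controls and 0.36, 0.50 and 0.37 in the knockouts. Every knockout lay above every control. The difference was 0.45 ± 0.09 (SE, 95% interval 0.23 to 0.68, adjusted p = 0.184), a level 1.37-fold that of the controls. Over 18 other settings it ran from 0.37 to 0.53, with adjusted p from 0.101 to 0.597.

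Nqo1, the quinone reductase most often used as a readout of NRF2, was at 1.52, 1.47 and 1.59 in the controls and 1.70, 1.70 and 1.59 in the knockouts. Knockout 3 lay level with control 3 to 2 decimals, and the difference was 0.14 ± 0.06 (adjusted p = 0.403). Ephx1, microsomal epoxide hydrolase, was at 3.82, 3.99 and 3.59 in the controls and 4.10, 3.96 and 4.25 in the knockouts (0.30 ± 0.12, adjusted p = 0.392). Its groups overlapped on this probe, which was at 0.20 without control 3. Its other probe was at 0.21, with every knockout above every control. Ugdh, which makes UDP-glucuronate, was at 0.12 ± 0.07. The mean deviation of the 4 genes was 0.03, 0.05 and -0.08 in the controls and 0.24, 0.27 and 0.25 in the knockouts. All 3 knockouts lay above all controls in this average, for which no test is given.

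The inducible stress genes lay below the control mean. Hmox1, haem oxygenase 1, which degrades haem, was at 2.77, 2.61 and 2.72 in the controls and 2.45, 2.40 and 2.19 in the knockouts. On this brighter probe all knockouts lay below all controls, and knockout 3 was the lowest array. On the other probe the groups overlapped, with knockout 2 (-0.46) above control 2 (-0.50). The difference was -0.35 ± 0.08 (interval -0.56 to -0.15, adjusted p = 0.219), with the other probe at -0.22. Once slide row was a block it was -0.25 (adjusted p = 0.552). Osgin1, a growth inhibitor induced by oxidative stress, was at 4.26, 3.83 and 3.86 in the controls and 3.98, 3.64 and 3.59 in the knockouts (-0.25 ± 0.16, adjusted p = 0.589). Its groups overlapped, and the difference was 0.0012 once slide row was a block.

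Hmox1 is strongly expressed by macrophages that clear red cells, so both cell types were set beside it. The macrophage and dendritic cell list had 0 of 11 markers past the test but 8 of 11 higher at an unadjusted p under 0.05 (6.69% of all genes) and 11 of 11 above 0 (47.1% of all genes), with a summed level of 77.7 to 87.6 in the controls and 96.2 to 99.4 in the knockouts. That is the direction opposite to Hmox1. The red cell list had 0 of 6 past the test and 5 of 6 below 0, against 8098 of all 15309 genes. Of the 6, 2 were lower at an unadjusted p under 0.05 (6.13% of all genes). The red cell sum was 221 to 276 in the controls and 117 to 236 in the knockouts. The neutrophil list had 0 of 6 past the test and 4 of 6 below 0, against 8098 of all 15309 genes. Of the 6, 3 were lower at an unadjusted p under 0.05 (6.13% of all genes), S100a8, S100a9 and Retnlg. The others did not follow them, with Mpo at 0.22, Camp at 0.11 and Elane at -0.03. The neutrophil sums were 8.42 to 10.5 in the controls and 3.87 to 5.74 in the knockouts. The adipocyte list had 0 of 9 past the test and 8 of 9 below 0, against 8098 of all 15309 genes. Its sums were 40.6 to 69.1 in the controls and 22.3 to 65.4 in the knockouts. Of the red cell, neutrophil and adipocyte sums, only the neutrophil sum was lower in every knockout, as Hmox1 was on its brighter probe. The red cell sum of knockout 1 (236) lay inside the range of the controls. So did the adipocyte sum of knockout 3 (65.4), the array lowest in Hmox1. The markers Cd163, Ly6g, Ngp, Ahsp and Lep did not enter the test. The part of these cells in the Hmox1 difference was not tested.

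Superoxide dismutases and catalase dispose of superoxide and hydrogen peroxide, and their genes did not differ beyond the spread. Sod1, the cytosolic enzyme, was at 7.80, 7.66 and 7.84 in the controls and 7.74, 7.76 and 7.76 in the knockouts (-0.01 ± 0.06, interval -0.16 to 0.13). Sod2, the mitochondrial enzyme, was at 7.30, 7.31 and 7.46 in the controls and 7.29, 7.36 and 7.31 in the knockouts (-0.03 ± 0.06). Cat, peroxisomal catalase, was at 0.02 ± 0.06, with its other probe at -0.0058. The groups overlapped for all 3.

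**Figure D4:**
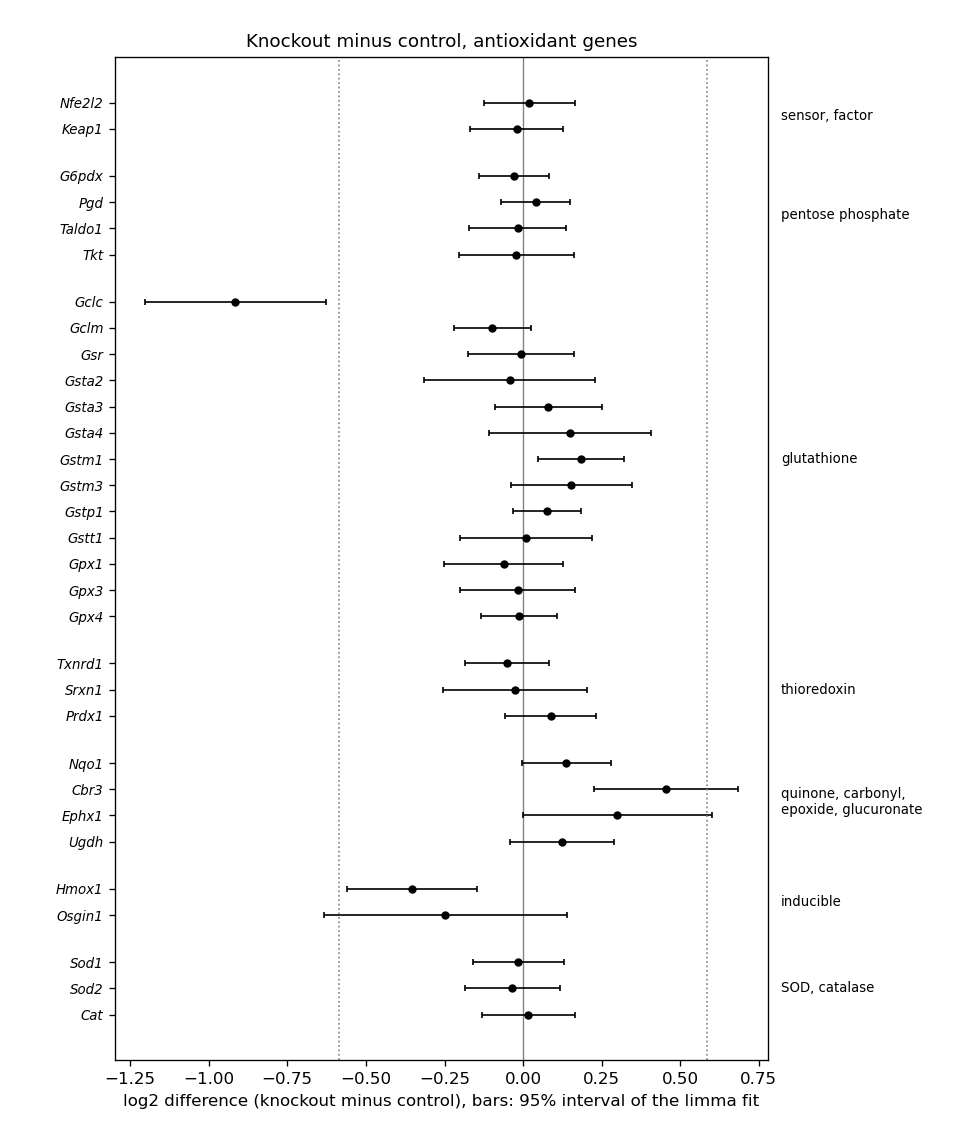
Knockout minus control difference of each gene on the log2 scale with its 95% interval from the limma fit, genes grouped by role; dotted lines mark a 1.5-fold change in either direction. The Gclc interval (-1.20 to -0.63) lies beyond the dotted line, those of Cbr3, Ephx1 and Osgin1 cross it, and the other 27 lie inside.

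The genes also shared a pattern among the controls. Control 3 was the highest of the 3 controls for 20 of 31 genes (64.5%), beside 49.3% of all genes tested. The knockouts spread less than the controls for 25 of 31 genes (80.6%), beside 56.7% of all genes, with a median SD of 0.055 in the knockouts and 0.089 in the controls. These shares are descriptions, with no test. Probes of 1 gene pointed the same way for 8 of the 9 genes with several probes, all but Cat.

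Other genes of the pathway were taken from 5 lists that hold 99 names. Of the 94 tested, 2 rose and 0 fell (0.105% of all genes tested rose and 0.0653% fell), and 12 of 94, or 12.8%, had an unadjusted p under 0.05, beside the same 12.8% of all genes. The genes that rose were Bach2 and Txnip.

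Among 11 tested regulators of NRF2, 1 rose, Bach2. BACH2 is a repressor of the BACH family that binds MAF recognition sites and is best known in lymphocytes, while its relative BACH1 competes with NRF2 in most tissues. Bach2 was at -2.15, -2.08 and -2.02 in the controls and -1.42, -1.32 and -1.29 in the knockouts. The groups were well apart, with a difference of 0.74 ± 0.06 (SE, limma adjusted p = 0.0314), or 1.67-fold. A dimmer Bach2 probe, well above background on 1 control and 1 knockout array, was at 0.38. Over 18 other settings the adjusted p of Bach2 ran from 0.0136 to 0.191 and was under 0.05 in 10. The call was lost once slide row was a block (0.66, adjusted p = 0.0758) and within the first row (0.191). When 1 array was left out in turn, it was under 0.05 without knockout 1 alone (0.0299), and 0.0518 to 0.176 without any other. Bach1 itself was at 0.0090 ± 0.05. Maff, a small MAF partner, was at 0.34 ± 0.10 (adjusted p = 0.276), and Cul3 and Rbx1, which with KEAP1 form the ligase that marks NRF2, were at -0.09 ± 0.05 each.

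Among 16 tested thioredoxin and peroxiredoxin genes, 1 rose, Txnip, which encodes the thioredoxin-binding inhibitor and restrains glucose uptake. It was at 3.86, 3.76 and 3.65 in the controls and 4.41, 4.48 and 4.51 in the knockouts. Every knockout lay well above every control, with a difference of 0.71 ± 0.07 (adjusted p = 0.0431), or 1.64-fold, and its other probe was at 0.73. The adjusted p ran from 0.0088 to 0.257 over 18 other settings and passed in 9. The call was lost once slide row was a block (0.66, adjusted p = 0.123) and within the first row (0.257). When 1 array was left out in turn, it was under 0.05 without control 1 alone (0.0454), and 0.0510 to 0.198 without any other. Txnrd3, a thioredoxin-glutathione reductase, was at 0.33 ± 0.06 (adjusted p = 0.156), the mitochondrial Prdx3 at -0.13 ± 0.06 and Txn2 at -0.09 ± 0.06.

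Among 17 tested sources of NADPH outside the pentose phosphate members and enzymes next to them, none passed. An unadjusted p under 0.05 was reached by 1 gene, or 5.88%, beside 12.8% of all genes. This gene was Mthfd2l, a mitochondrial folate dehydrogenase, at 0.22 ± 0.06 (adjusted p = 0.259). H6pd, the endoplasmic reticulum counterpart of G6pdx, was at -0.10 ± 0.05, Aldh1l1, a folate enzyme that yields NADPH, at 0.11 ± 0.06, and cytosolic Idh1 at -0.12 ± 0.08. NAD kinase, which turns NAD into NADP, was at 0.12 ± 0.08 for the cytosolic Nadk and 0.04 ± 0.06 for the mitochondrial Nadk2. The interval of all 17 lay within a 1.5-fold change. Nnt, the mitochondrial transhydrogenase, had no probe matched by accession.

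Among 26 tested other glutathione genes, none passed, and 3, or 11.5%, had an unadjusted p under 0.05, beside 12.8% of all genes. Gstm6 was at -0.52 ± 0.14 (adjusted p = 0.254), Ggct, which releases amino acids in glutathione breakdown, at 0.18 ± 0.05, and Oplah, which returns 5-oxoproline to glutamate, at -0.18 ± 0.05. Gpx2, the epithelial peroxidase, was at 0.59 ± 0.25. Among 24 tested genes of a wider list of reported targets, none passed and 18 of 24 were above 0, beside 47.1% of all genes. The lowest p values were those of Nmrk1, better known as nicotinamide riboside kinase, at -0.34 ± 0.09 (adjusted p = 0.235), the efflux pump gene Abcc3 at 0.50 ± 0.16, Trim16 at 0.35 ± 0.13 and the carboxylesterase gene Ces1g at 1.15 ± 0.44.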

How the data were processed

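RNA was labelled with 1 dye, Cy3, for Agilent mouse 8x60K arrays, per the labels. The authors deposited scanner files holding spot intensity, background-subtracted and detrended by Agilent Feature Extraction 10.7.1.1 and not scaled between arrays, per the file headers, with 0 or 1 flags per spot. Their deposited value table holds a linear ratio to a constant per array. The 92 to 151 spots per array with an outlier mark were dropped, the deposited intensity was put on the log2 scale, repeat spots were averaged by probe, and values were set relative to the array's 75th percentile. A probe was kept if every array of at least 1 group had it well above background. Accessions were matched to RefSeq symbols (GRCm38.p6; the array's own positions are on mm9), naming 28026 of 55681 probes, and the brightest kept probe stood for a gene. Groups were compared with limma 3.58.1 (lmFit, eBayes) in R 4.3.3, with Benjamini-Hochberg adjustment over 15309 genes. On simulated data for this comparison (15309 genes, 10 runs) the fit found 61.1% of the 1.5-fold changes and 80.8% of the 2-fold ones. The simulated noise was independent between genes, with no effect of slide row or array, so these shares need not hold for the real arrays.

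The members and lists were chosen with earlier results of these data known. Named genes are all members, Nampt, and up to 4 genes of smallest p per pathway list; Bach1, Nadk and Nadk2 were added for their role. Cell type markers are described by counts and summed levels. Lrp2, Slc34a1, Rnf24, Havcr1, Clu, Umod, S100a8, S100a9, Retnlg, Mpo, Camp and Elane were named after their values were seen. Replicate numbers were checked for pairing: deviations of same-numbered arrays correlated at 0.10, -0.096 and -0.025 across 15307 genes. Those of differently numbered arrays correlated at -0.091 to 0.12. The numbers thus gave no sign of pairing, which 3 arrays per group cannot exclude. Alternatives covered normalisation, background correction, filters, probe choice, variance model, blocks and omission of each array in turn. The normexp alternative used median spot signals.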

Additional observations from a re-analysis of the deposited data

How the results depend on the processing

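Of 558 values of the 31 genes over 18 settings, 509 kept direction and side of the threshold, 3 passed where the reported one did not, all of Gclc, and 46 changed sign; the cause was not tested. Of these 46, 44 were of differences between -0.06 and 0.02, and 2 of Osgin1, reported at -0.25. One member passed with a trended and robust variance and with array weights (1 each), and 0 to 1 when 1 array was left out. Over all genes the count of calls was 26, against 11 with quantile normalisation, 77 with no filter on dim probes (21154 genes tested), 57 with a trended and robust variance, 89 with array weights, 16 with slide row as a block, 6 within the first row, and 0 to 57 when 1 array was left out. Counts of 0 came without control 2 and without control 3 (1436 and 1550 genes at an unadjusted p under 0.05 by limma). With the replicate number as a block 0 genes and 0 members were called (1636 genes at an unadjusted p under 0.05 by limma). Gclc was then at -0.92 (limma adjusted p = 0.115), and the calls of Bach2 and Txnip were lost (0.115 and 0.183). The numbers gave no sign of pairing, which 3 arrays per group cannot exclude.

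The difference between the pentose phosphate and glutathione classes was 0.031, against -0.0044 with slide row as a block and, from the same arrays, within the first row, -0.015 with the median over members, 0.18 with no transferases in the glutathione class, -0.042 without Gclc (added after seeing the data), and 0.022 to 0.049 when 1 array was left out. With slide row as a block, or within its first row, signs turned for Keap1 (0.014), Gsr (0.087), Gsta2 (0.028), Gstt1 (-0.0065), Gpx3 (0.015) and Osgin1 (0.0012), 6 of 31 beside 22.0% of all genes. With quantile normalisation they turned for Tkt (0.0080), Gsr (0.0090), Gpx4 (0.0064) and Srxn1 (0.0030), with normexp and quantile normalisation for G6pdx (0.027), Gsr (0.0089) and Sod1 (0.0081), and with array weights for Taldo1 (0.033), Tkt (0.0054), Gsr (0.0076), Gpx4 (0.0030) and Sod1 (0.032). Leaving out 1 array turned Cat (-0.014 to 0.068), Gpx1 (-0.12 to 0.013), Gpx3 (-0.074 to 0.052), Gpx4 (-0.032 to 0.020), Gsr (-0.053 to 0.030), Gsta2 (-0.13 to 0.073), Gstt1 (-0.075 to 0.083), Keap1 (-0.064 to 0.014), Nfe2l2 (-0.0061 to 0.071), Sod1 (-0.066 to 0.022), Sod2 (-0.064 to 0.018), Srxn1 (-0.11 to 0.065), Taldo1 (-0.063 to 0.020) and Tkt (-0.075 to 0.052).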

Other observations

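Slc7a11, which encodes the cystine carrier that feeds glutathione synthesis, exceeded background clearly in knockouts 2 and 3, and in neither knockout 1 nor a control. Its normalised log2 signal was -7.61, -7.69 and -7.53 in the controls, -7.42 in knockout 1, and -2.76 and -3.63 in knockouts 2 and 3. It was not tested, because it was not measured on all arrays of either group, and the 2 arrays that measured it are those of the second slide row. Nfe2l3, an NRF2 relative, was well above background on 1 control and 2 knockout arrays and was not tested either. Neither Panx2 probe was well above background on any array.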
